A study of Bos taurus with 28 samples.

Results

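The genes of the complement system were followed in liver biopsies of cows treated with estradiol-17β, progesterone or both. The list held 35 genes, with members picked by symbol for their place in the pathway, at a time when earlier results of these data were known. On the Affymetrix Bovine GeneChip, 32 of them had a probe set (the short probes that together read 1 transcript) that the array annotation pairs with exactly 1 gene symbol, out of 9155 such genes on the array. Each gene was read at its probe set with the highest mean log2 signal over all 28 arrays. CD59, C3AR1 and C5AR1 had no such probe set. MASP1 did not reach a signal of 350 on any array (its highest was 253.9), the minimum for testing, so that 31 genes were tested among 18775 probe sets.

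The animals were ovariectomized, non-lactating Holstein cows. They received for 14 days an ear implant that released estradiol-17β (E2T), intravaginal progesterone inserts (P4T), both devices (E2P4T), or no hormone (CO), and 7 arrays per group were deposited. The sample labels call the hormone exposure intradermal also for P4T, whereas the treatment protocol names a vaginal device for progesterone. The CO animals were also ovariectomized, so every comparison is with a cow without ovaries and without replacement. Cows changed treatment in a replicated Latin square and therefore appear in several groups, but the labels give neither cow nor period. P-values treat the arrays as independent samples. The study left out an outlying array from P4T and another from E2P4T. It then analysed more CO and E2T arrays than the 7 deposited for each, and 7 in each of P4T and E2P4T. The labels do not show which arrays were left out, or whether they are among those deposited. The age of the cows is not given in the sources used here.

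Complement is a cascade of plasma proteases and binding proteins that marks and lyses microbes. The classical pathway starts when C1q binds antibody, the lectin pathway when mannan-binding lectins, ficolins or collectins bind sugars, and the alternative pathway runs through factor B and factor D. All 3 converge on cleavage of C3, after which C5 to C9 assemble the membrane attack complex. Hepatocytes secrete most of the plasma components, whereas C1q comes largely from macrophages, including the Kupffer cells of the liver. Several of the hepatocyte products, among them C3, C4 and factor B, are acute phase proteins, which rise in plasma during inflammation.

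The arrays E2P4T number 5 and P4T number 4 stood apart from the other 26, so counts and medians are given with and without them, and most values of single genes without them. All-array values of single genes are added where they differ widely. The hepatocyte markers (19 of 21 listed genes on the array) had a mean log2 signal of 10.19 on E2P4T number 5, and of 15.44 on P4T number 4, against 15.08 to 15.76 on the other 26 arrays. Their summed signal was 48600 on E2P4T number 5, 2003000 on P4T number 4 and 983000 to 1840000 on the 26. The gene of albumin, ALB, had a log2 signal of 12.06 on E2P4T number 5 against 16.57 to 18.16 on the 26 arrays. Kidney tubule and glomerulus markers (10 of 19 on the array) averaged 10.87 on E2P4T number 5 and 7.69 on P4T number 4, against 5 to 7.97 on the 26. CDH16, a cadherin of kidney tubules, had a log2 signal of 14.42 on E2P4T number 5 against 3.95 to 8.75, and UMOD, the gene of uromodulin, had 11.33 against 2.77 to 8.61. The control RNAs added for hybridisation (9 spike probe sets) had their highest means on E2P4T number 5 (18.27) and P4T number 4 (17.31), followed by CO number 3 (16.26) and E2T number 3 (15.42), against 12.95 to 14.9 on the other 24. In tissue of mixed cells, fewer cells of a type and less RNA per cell cannot be told apart.

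No complement gene passed an adjusted p of 0.05 in any comparison, and neither did any other probe set (percent called over all 18775 probe sets, 0 in E2T, P4T and E2P4T against CO, in the direct comparisons of treatments, in the main effects and interaction, and in the F test). This held with all 28 arrays and without E2P4T number 5 and P4T number 4 (limma, Benjamini-Hochberg adjustment over all probe sets). With all arrays, the lowest adjusted p of a complement gene against CO was 0.87 in E2T, 1 in P4T and, with both hormones, 0.93. With E2T number 3 and CO number 3 also left out, 0 complement genes and 1 other probe set (0.00533% of those tested) passed in E2T. What follows are therefore sizes and intervals, not called changes. At an unadjusted p under 0.05 with all 28 arrays, 0 complement genes passed in E2T, where 3.98% of all probe sets passed lower and 1.45% higher. In P4T 0 passed, where 1.84% of all probe sets passed lower and 0.943% higher. In E2P4T 4 of 31 had a lower mean at that level, where 2.74% of all probe sets did, and 0 had a higher one, where 2.17% did. The 4 genes were C2, C4A, C8G and C4BPA. In the F test over the treatments 0 of 31 genes passed at that level (2.14% of all probe sets).

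The median log2 fold change of the 31 genes against CO was -0.07 in E2T, -0.14 in P4T and, with both hormones, -0.64, beside -0.1, -0.03 and -0.02 over all probe sets tested. Means were lower than in CO for 17, 22 and 25 of the 31 genes in E2T, P4T and E2P4T, while 59.8%, 53.7% and 51.7% of all probe sets had a lower mean. The shift in E2P4T rested on 1 array. Without E2P4T number 5 and P4T number 4 the medians were -0.07, 0.01 and -0.06, and 17, 15 and 19 genes had a lower mean, beside 59.8%, 59.1% and 58.5% of all probe sets. Leaving out E2P4T number 5 alone gave a median of -0.06 in E2P4T. The 3 comparisons share the CO arrays, so their values are not independent of one another.

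**Figure D1:**
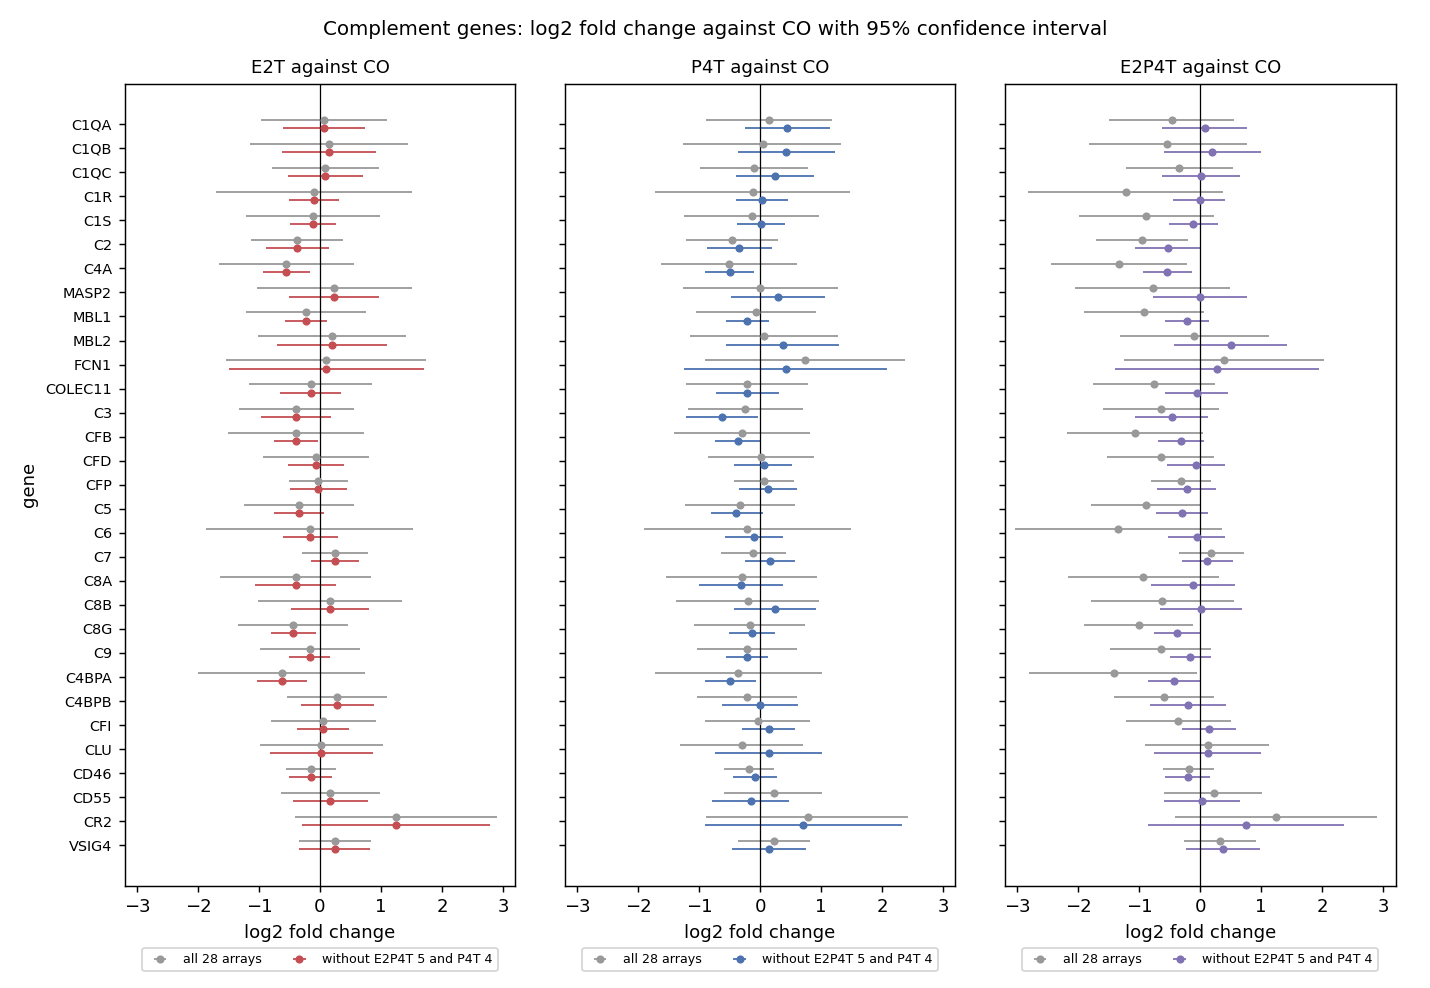
Log2 fold change of each of the 31 tested complement genes against CO (x axis) in E2T, P4T and E2P4T (panels), with bars for the 95% confidence interval. Grey points use all 28 arrays and coloured points leave out E2P4T number 5 and P4T number 4. In E2P4T the median of the grey points is -0.64 and that of the coloured points -0.06, and the coloured intervals are shorter.

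Without these 2 arrays, 4 of 31 genes had a lower mean in E2T at an unadjusted p under 0.05 (7.2% of all probe sets), 3 in P4T (5.81%) and 3 in E2P4T (6.51%), and none a higher one (3.03%, 2.39% and 2.99% of all probe sets). C4A was among them in each of the 3 treatments, and so was C4BPA. C8G was among them in E2T and E2P4T, CFB in E2T and C3 in P4T. The adjusted p of these genes in these comparisons with CO was 0.39 to 0.6. In the F test C4A and C4BPA passed at that level (2 of 31 genes, and 5.7% of all probe sets), with an adjusted p of 0.87 each. With E2T number 3 and CO number 3 left out as well, neither did, and C8G passed instead (1 of 31 genes, and 6.15% of all probe sets), with an adjusted p of 0.79. In the comparisons with CO on these 24 arrays the counts were 4, 1 and 3, where 9.35%, 4.53% and 5.21% of all probe sets passed lower. C4A was still among them in each treatment, whereas C4BPA no longer was in P4T and E2P4T, C3 no longer was in P4T, and C2 was in E2P4T. In 0 of 31 genes did every array of a treatment lie below every CO array. With all arrays 0.0959% of all probe sets did so in E2T and 0.0213% in each of P4T and E2P4T, without the 2 arrays 0.0959%, 0.128% and 0.117%, and without the 4 arrays 0.607%, 0.17% and 0.165%.

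C4A, the gene of complement C4, which is cleaved to start the C3 convertase of the classical and lectin pathways, had a lower mean in each of the 3 treatments than in CO, short of the threshold. Its log2 signal (lowest, median, highest) was 15.49, 15.62 and 15.83 in E2T, 15.38, 15.65 and 16.26 in P4T, 10.13, 15.47 and 16.31 in E2P4T, and 15.54, 16.15 and 16.8 in CO. Each of the 7 E2T arrays, 6 of 7 P4T arrays and 6 of 7 E2P4T arrays lay below the CO mean, while the ranges overlapped. Without E2P4T number 5 and P4T number 4 the log2 fold change was -0.56 in E2T (SE 0.19; adjusted p = 0.39), -0.5 in P4T (SE 0.2; adjusted p = 0.59) and -0.54 in E2P4T (SE 0.2; adjusted p = 0.49) in limma. These are folds of 0.68, 0.705 and 0.689. With all arrays the value in E2P4T was -1.33 (SE 0.54; adjusted p = 0.93). Under the alternative settings the difference stayed negative, from -0.67 to -0.29 in E2T, from -0.62 to -0.33 in P4T and from -1.57 to -0.39 in E2P4T.

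C4BPA encodes the alpha chain of C4b-binding protein, the plasma inhibitor that takes apart the C4-containing convertase. Its log2 signal (lowest, median, highest) was 15.26, 15.88 and 16.23 in E2T, 15.77, 15.99 and 16.87 in P4T, 9.05, 15.78 and 16.69 in E2P4T, and 16.08, 16.41 and 17.12 in CO. In E2T 7 of 7 arrays lay below the CO mean and 5 lay below the lowest CO array. In P4T, without number 4, 6 of 6 lay below the CO mean and 4 below the lowest CO array, and in E2P4T, without number 5, 4 of 6 and 3. The log2 fold change without the 2 arrays was -0.63 in E2T (SE 0.2; adjusted p = 0.39), -0.49 in P4T (SE 0.21; adjusted p = 0.6) and -0.43 in E2P4T (SE 0.21; adjusted p = 0.52) in limma. With all arrays the value in E2P4T was -1.42 (SE 0.67; adjusted p = 0.93). The interaction of estradiol and progesterone was 0.69 (SE 0.29; adjusted p = 0.98) without the 2 arrays and -0.43 (SE 0.95; adjusted p = 1) with all arrays, so that its direction turned with E2P4T number 5 and P4T number 4. C4BPB, the gene of the beta chain of the same protein, had a log2 fold change of 0.28 (SE 0.29) in E2T, 0 (SE 0.3) in P4T and -0.2 (SE 0.3) in E2P4T without the 2 arrays. With all arrays it was the gene of lowest p between E2P4T and E2T, at -0.88 (SE 0.4; adjusted p = 1 in limma), and without the 2 arrays that difference was -0.48 (SE 0.3; adjusted p = 1). Its signal was 11.26 to 12.7 in E2T, 10.29 to 12.37 in P4T, 8.73 to 12.38 in E2P4T and 11.05 to 13.18 in CO, with medians of 12.13, 11.67, 11.29 and 11.33. Whether the chains differ in their response was not tested.

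CFB, factor B, the protease of the alternative convertase, had the smallest SD among the CO arrays of all 32 genes (0.08, next to 0.11 for C9). Its log2 signal (lowest, median, highest) was 16.44, 16.77 and 17.06 in E2T, 16.59, 16.72 and 17.19 in P4T, 11.55, 16.74 and 17.28 in E2P4T, and 17.04, 17.09 and 17.25 in CO. Of the E2T arrays 6 of 7 lay below the lowest CO array, as did 5 of 6 P4T arrays without number 4 and 3 of 6 E2P4T arrays without number 5. The log2 fold change without the 2 arrays was -0.39 in E2T (SE 0.18; adjusted p = 0.47), -0.36 in P4T (SE 0.18; adjusted p = 0.6) and -0.32 in E2P4T (SE 0.18; adjusted p = 0.57) in limma. Quantile normalization of the same 26 arrays took these to 0, 0.03 and 0.04, so that the direction of CFB depends on the scaling. With all arrays the value in E2P4T was -1.07 (SE 0.54; adjusted p = 0.93 in limma).

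C3, on which the 3 pathways converge, was spread by single arrays. Its log2 signal (lowest, median, highest) was 16.67, 16.87 and 18.29 in E2T, 16.65, 16.85 and 19.66 in P4T, 15.87, 16.88 and 17.71 in E2P4T, and 17.25, 17.33 and 18.93 in CO. The highest values were those of P4T number 4, CO number 3 and E2T number 3, which had high spike signals, whereas E2P4T number 5, with the highest spike signals, had the lowest value of all 28 arrays. Without P4T number 4 and E2P4T number 5, 4 of 7 E2T, 5 of 6 P4T and 3 of 6 E2P4T arrays lay below the lowest CO array, and the log2 fold change was -0.39 (SE 0.28; adjusted p = 0.62), -0.63 (SE 0.29; adjusted p = 0.6) and -0.47 (SE 0.29; adjusted p = 0.59) in limma. With quantile normalization these were 0.01, -0.11 and 0.01. The next probe set of C3 gave -0.48, -0.43 and -0.38 without the 2 arrays, and another, of low signal, -1.01, -0.7 and -0.02.

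**Figure D2:**
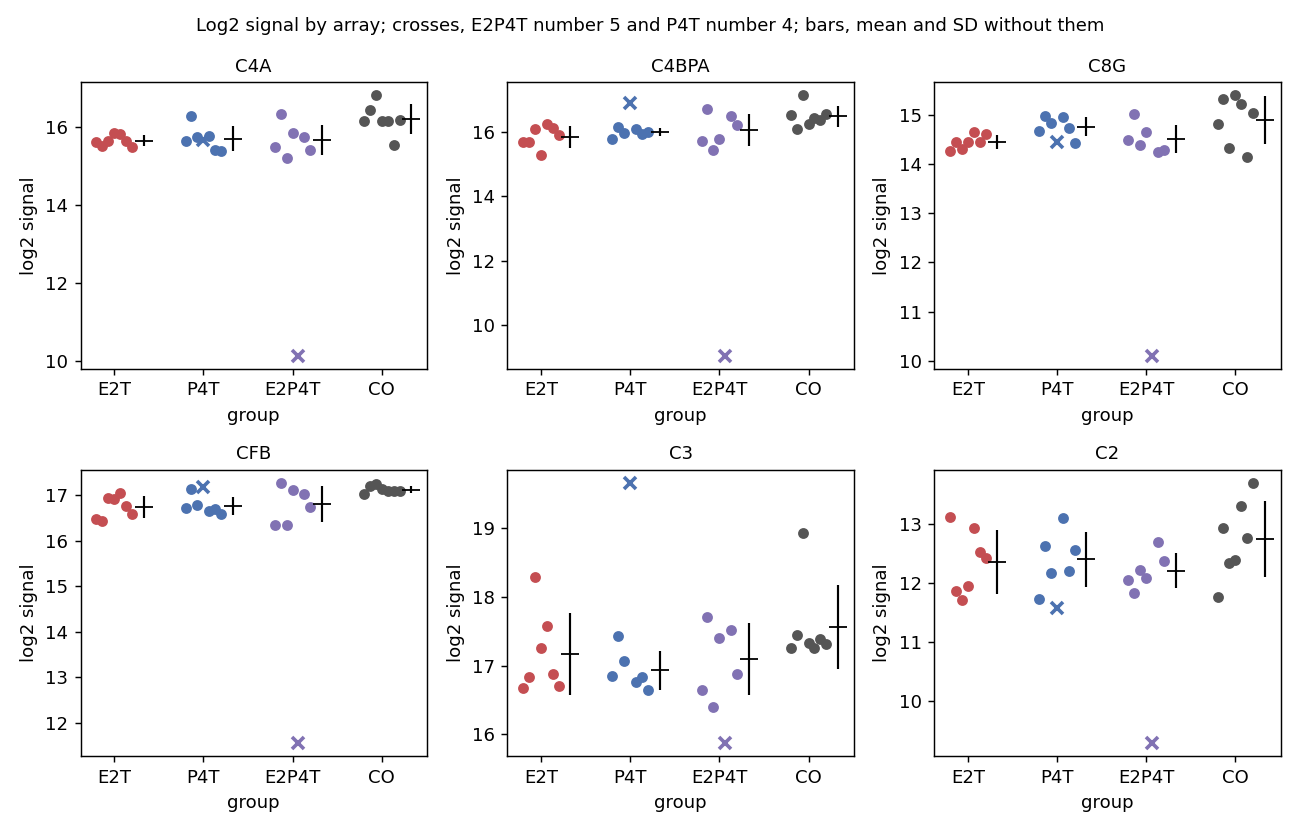
Log2 signal on each array (y axis) for C4A, C4BPA, C8G, CFB, C3 and C2 in E2T, P4T, E2P4T and CO (x axis). Crosses are E2P4T number 5 and P4T number 4, and bars give mean ± SD of the arrays without them (n = 7, 6, 6 and 7). For C4A the E2T arrays sit between 15.49 and 15.83 and the CO arrays between 15.54 and 16.8. E2P4T number 5 is the lowest point in all 6 panels.

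The remaining classical pathway genes were C1q, its proteases and C2. C2, which C1s cleaves after C4, had a log2 signal (lowest, median, highest) of 11.72, 12.42 and 13.12 in E2T, 11.58, 12.2 and 13.11 in P4T, 9.29, 12.09 and 12.7 in E2P4T, and 11.77, 12.76 and 13.7 in CO. All 7 E2P4T arrays lay below the CO mean, and its log2 fold change in E2P4T was -0.95 with all arrays (SE 0.37; adjusted p = 0.93) and -0.53 without the 2 arrays (SE 0.26; adjusted p = 0.53) in limma. In E2T and P4T it was -0.38 (SE 0.25) and -0.34 (SE 0.26) without the 2 arrays. C1R and C1S, the proteases of the C1 complex, had values near 0 there: C1R -0.1, 0.03 and -0.01, and C1S -0.11, 0.01 and -0.11 in E2T, P4T and E2P4T. With all arrays the values in E2P4T were -1.22 for C1R and -0.88 for C1S. Quantile normalization of the 26 arrays turned the sign in E2T, to 0.05 for C1R and 0.12 for C1S, and in E2P4T, to 0.06 and 0.05.

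The direction of the C1q chains depended on the arrays used in each treatment. C1QA had a log2 signal (lowest, median, highest) of 11.88, 13.39 and 13.74 in E2T, 11.51, 13.66 and 13.93 in P4T, 9.5, 13.18 and 13.91 in E2P4T, and 12.01, 13.54 and 14.37 in CO. For C1QB these were 10.69, 12.38 and 12.8 in E2T, 9.73, 12.57 and 12.79 in P4T, 7.16, 12.14 and 12.88 in E2P4T, and 10.41, 12.43 and 13.31 in CO. For C1QC they were 11.04, 12.32 and 12.74 in E2T, 9.95, 12.37 and 12.86 in P4T, 9.65, 12 and 12.81 in E2P4T, and 11.06, 12.17 and 13.29 in CO. The groups overlapped throughout. Without the 2 arrays the log2 fold changes across E2T, P4T and E2P4T were 0.07, 0.44 and 0.08 for C1QA, 0.15, 0.43 and 0.2 for C1QB and 0.08, 0.25 and 0.01 for C1QC. In E2P4T these 3 genes were at -0.46, -0.54 and -0.35 with all arrays and at -0.12, -0.05 and -0.11 with E2T number 3 and CO number 3 also left out, when C1QA and C1QB in P4T were at 0.24 and 0.19. With only CO number 3 left out, C1QA, C1QB and C1QC were at -0.13, -0.1 and -0.04 in E2T. In P4T they were then at -0.06, -0.21 and -0.22. Without the 2 arrays, the 95% intervals of the 3 genes reached from -0.62 to 0.91 in E2T and from -0.39 to 1.23 in P4T. Kupffer cell and macrophage markers (11 of 16 on the array) had medians of 0.05, 0.19 and 0.12 in the same comparisons, and their mean log2 signal was 10.89 to 11.94 in E2T, 11.6 to 11.86 in P4T, 11.39 to 11.94 in E2P4T and 11.18 to 12.23 in CO. Hepatocyte markers had medians of -0.17, -0.19 and -0.24.

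The other genes of the alternative pathway were CFD, factor D, which cleaves factor B, and CFP, properdin, which stabilises the convertase. Without the 2 arrays the log2 fold change of CFD was -0.07 under E2T, 0.06 under P4T and -0.07 under E2P4T. Those of CFP were -0.03, 0.13 and -0.22. Each of these values was smaller in size than its SE (0.22 to 0.23 for CFD and 0.23 to 0.24 for CFP). Single CO arrays had an SD of 0.64 for CFD and 0.59 for CFP.

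Of the lectin pathway, 5 of 6 genes on the array were tested and their medians were 0.1, 0.3 and 0 in E2T, P4T and E2P4T without the 2 arrays, with single genes between -0.23 and 0.5. MBL2, a mannan-binding lectin, had the second largest spread of this pathway between arrays of a group (SD 0.93 over the 26 arrays), and FCN1, a ficolin of low signal, the largest (SD 1.59). FCN1 ranged over 2.85, 6.3 and 7.17 (lowest, median, highest) in E2T, 4.22, 7.16 and 8.54 in P4T, 3.75, 6.76 and 7.53 in E2P4T and 2.93, 5.79 and 8.54 in CO. A difference of less than about the interval of its E2T value, -1.49 to 1.7, could not be shown. MBL1, the other mannan-binding lectin, was -0.23, -0.21 and -0.21 in E2T, P4T and E2P4T. Its second probe set, of similar signal (mean log2 12.56 against 13.28), gave 0.03, 0.09 and -0.05. MASP2, the protease that cleaves C4 and C2 in this pathway, differed among its 4 probe sets, which gave 0.23, -0.11, -1.38 and 0.39 in E2T. The last 2 were of low signal (mean log2 7.18 and 6.43, against 11.44 and 11.37).

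The terminal pathway genes C5 to C9 had medians of -0.17, -0.13 and -0.12 in E2T, P4T and E2P4T without the 2 arrays, and 5 of 7 had a lower mean in each. C8G, the gamma chain of C8, had a log2 signal (lowest, median, highest) of 14.26, 14.45 and 14.65 in E2T, 14.43, 14.73 and 14.97 in P4T, 10.1, 14.38 and 15.02 in E2P4T, and 14.15, 15.05 and 15.4 in CO. All 7 E2T arrays lay below the CO mean but above the lowest CO array. Its log2 fold change without the 2 arrays was -0.44 in E2T (SE 0.18; adjusted p = 0.43), -0.13 in P4T (SE 0.19; adjusted p = 0.84) and -0.38 in E2P4T (SE 0.19; adjusted p = 0.52) in limma. C8A and C8B, the other chains of C8, were -0.4 and 0.16 in E2T, -0.31 and 0.24 in P4T, and -0.12 and 0.02 in E2P4T. C5, whose cleavage starts the attack complex, was -0.34, -0.39 and -0.3, and each of the 7 E2T arrays lay below its CO mean. C9, which forms the pore, varied least of all 32 genes (SD 0.2 over the 26 arrays) and was -0.17 (SE 0.16), -0.21 (SE 0.17) and -0.16 (SE 0.17), but 0.2, 0.14 and 0.2 after quantile normalization of the same arrays, so that its direction, too, depends on the scaling. C7 was 0.25, 0.17 and 0.11, and C6 was -0.16, -0.1 and -0.06, the last being 0.04 after quantile normalization. With all arrays C6 was at -1.34 in E2P4T.

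Among the soluble regulators, CFI, the protease that inactivates C3b and C4b, was 0.05, 0.14 and 0.14 in E2T, P4T and E2P4T without the 2 arrays. CLU, clusterin, which blocks assembly of the attack complex, had a log2 signal (lowest, median, highest) of 12.82, 14.57 and 14.95 in E2T, 11.47, 14.73 and 15.15 in P4T, 13.1, 14.82 and 15 in E2P4T, and 12.6, 14.8 and 15.5 in CO. It was 0.02 (SE 0.41), 0.14 (SE 0.43) and 0.12 (SE 0.43). Of the membrane regulators, CD46 was -0.15, -0.09 and -0.2 and CD55 was 0.17, -0.15 and 0.03, the value in P4T being 0.14 after quantile normalization. A second probe set of CD46, of low signal, gave -1, -0.44 and -0.74. VSIG4, the Kupffer cell receptor for C3 fragments, was 0.24, 0.14 and 0.38. CR2, the B cell receptor for C3 fragments, had a log2 signal (lowest, median, highest) of 5.5, 7.29 and 8.43 in E2T, 5.03, 6.33 and 7.36 in P4T, 3.78, 7.11 and 9.86 in E2P4T, and 2.29, 6.19 and 8.32 in CO. Without the 2 arrays its difference in E2T was 1.25 (SE 0.76; adjusted p = 0.56 in limma), while its other probe set gave -0.34, so the 2 disagree in sign.

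**Figure D3:**
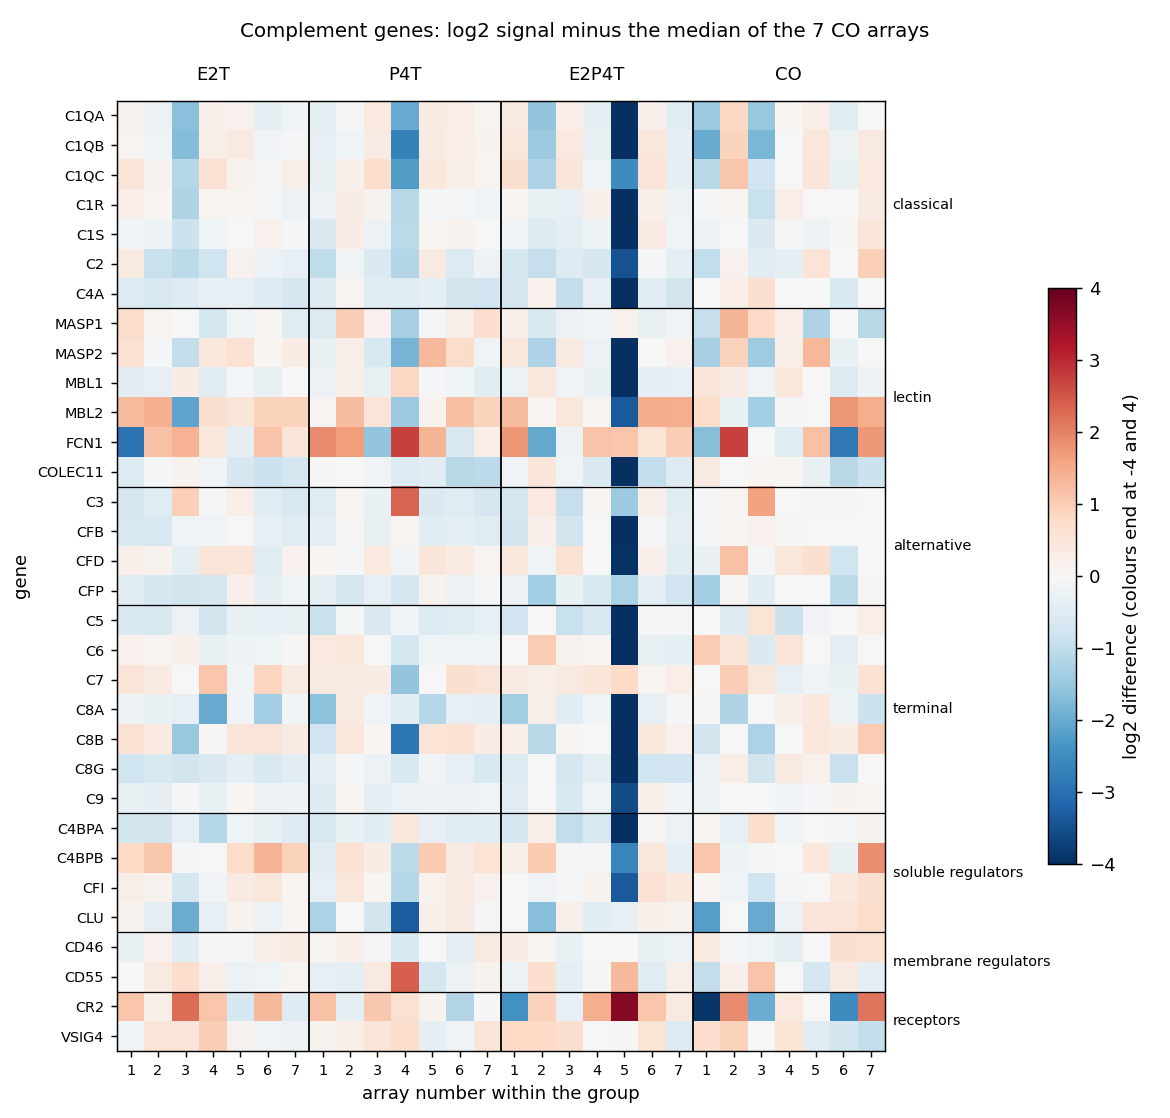
Log2 signal of each of the 32 complement genes (rows, by pathway) on each of the 28 arrays (columns, by group and array number), minus the median of the 7 CO arrays of that gene. Blue is lower and red higher than that median, and colours end at -4 and 4. The column of E2P4T number 5 is blue for most genes, with CLU, CD46, C7, VSIG4 and MASP1 near the other arrays and CR2 and CD55 red.

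The 2 arrays differed from each other in which complement genes were low. On E2P4T number 5, 23 of 32 genes lay below all of the 26 other arrays, where 14.2% of all tested probe sets did, and 2 lay above them, where 40.1% did. Against the median of the other 6 E2P4T arrays, the log2 difference was -8.86 for C6 (6.74 against 15.6), -8.45 for C1R, -6.93 for C4BPA and -5.82 for C8A, and 16 of the 32 genes were lower by over 4. The genes within 1 log2 unit of that median were CFP, VSIG4, CLU, CD46, FCN1, MASP1 and C7. CD55 was higher by 1.37 and CR2 by 3.03. Hepatocyte and macrophage markers were also low on this array, and macrophage markers averaged 7.68 against 10.89 to 12.23 on the 26 arrays. Kidney markers were high there. So were bile duct (cholangiocyte) markers (5 of 6 listed genes had a probe set), at 11.99 against 7.19 to 9. SPP1, osteopontin, which stands on the bile duct list, had a log2 signal of 15 against 1.77 to 7.22. Whether the signal of that list came from bile duct or from kidney on this array was not tested. The part of these markers in the result was not tested.

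On P4T number 4, 14 of 32 genes lay below all of the 26 arrays, where 12.9% of tested probe sets did, and 4 above them, where 31.2% did. The log2 difference from the median of the other 6 P4T arrays was -3.29 for CLU (11.47 against 14.75), -3.27 for C8B, -2.9 for C1QB, -2.43 for C1QC and -2.23 for C1QA. C3 was higher by 2.82 (19.66 against 16.84, a fold of 7.08), CD55 by 2.67, FCN1 by 1.93 and MBL1 by 1.05. C4A differed from the median by -0.03, at 15.65 against 15.68, and C9 was at 16.68 in both. The mean of the hepatocyte markers on this array, at 15.44, lay within the range of the 26 arrays. Their summed signal, 2003000, was above the 983000 to 1840000 of those arrays. Macrophage markers had a mean of 10.97, below the 11.6 to 11.86 of the other 6 P4T arrays. It was within the 10.89 to 12.23 of the 26 arrays. The spike controls were higher than on those arrays, and their part in the result was not tested.

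**Figure D4:**
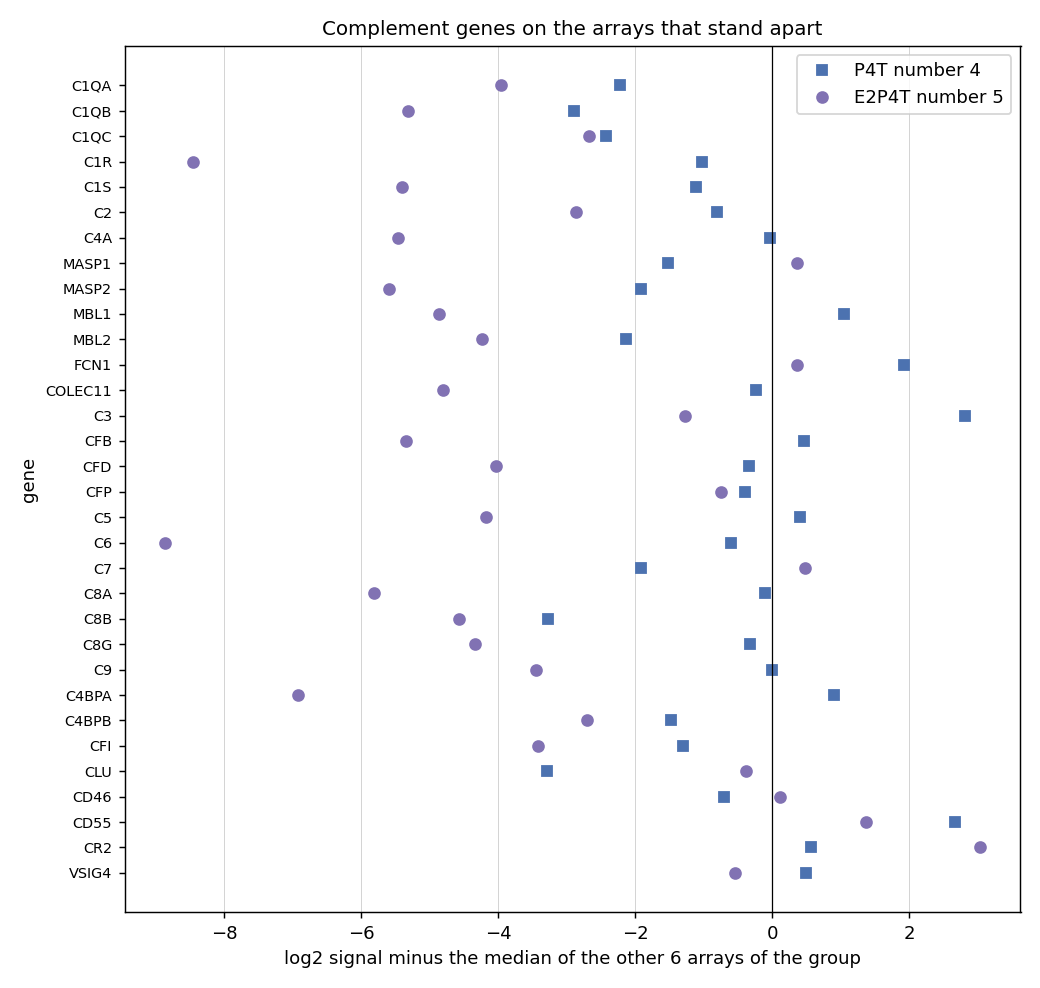
Log2 signal of each complement gene on P4T number 4 (squares) and E2P4T number 5 (circles), minus the median of the other 6 arrays of the same group (x axis). The circles reach -8.86 at C6, the squares reach -3.29 at CLU and 2.82 at C3.

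The arrays with the highest spike signals of their groups, E2P4T number 5, P4T number 4, E2T number 3 and CO number 3, were also those with the lowest value of some complement genes. C1QA, C1R, C1S, C8B, CFI, MASP2 and MBL2 each had their lowest value of all 4 groups on these arrays, that is 7 of 32 genes (21.9%), whereas 3.75% of all tested probe sets did so. C1R, for example, had 14.1 on E2T number 3, where the E2T median was 15.37, and 14.4 on CO number 3, where the CO median was 15.29. With all 4 arrays left out, the log2 fold changes of C4A across E2T, P4T and E2P4T were -0.45 (SE 0.18), -0.4 (SE 0.18) and -0.44 (SE 0.18), those of C4BPA -0.56 (SE 0.19), -0.38 (SE 0.19) and -0.32 (SE 0.19), and those of C8G -0.51 (SE 0.18), -0.23 (SE 0.18) and -0.48 (SE 0.18). The adjusted p of these 3 genes was then 0.26 to 0.82 in limma. The part of hybridisation in these values was not tested.

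Some complement genes lie beside each other in the bovine genome, and 13 pairs of members had at most 4 protein-coding genes between them on the ARS-UCD2.0 assembly of RefSeq. Their co-variation was described on the 26 arrays after the group mean was removed from each gene. These arrays share cows, so no p is given. C1QA and C1QC, which are adjacent, had r = 0.97 (Spearman's rho 0.94), and C1QA and C1QB had r = 0.98 (rho 0.96). In 4 of the 26 arrays, E2T number 3, E2P4T number 2, CO number 1 and CO number 3, all chains of C1q were low together, with C1QA at 11.88 to 12.05 and C1QB at 10.41 to 10.98. On the other 22 arrays C1QA still had r = 0.95 with C1QB and 0.93 with C1QC. C1R and C1S had r = 0.76 (rho 0.6), which was 0.58 without the 2 arrays farthest in C1R. C4A and CFB, of the complement cluster in the major histocompatibility region, had r = 0.72 (rho 0.79), and C2, adjacent to CFB, had r = -0.04 with it. C8A and C8B, also adjacent, had r = -0.06, C6 and C7 had -0.09, and C4BPA and C4BPB had 0.36. Over all 496 pairs of the 32 genes the median r was 0.05 (-0.71 to 0.98), and over the 13 neighbouring pairs it was 0.25 (-0.41 to 0.98). Pairs outside these 13 also reached high values, among them C8B and CLU (r = 0.93) and C1S and CFI (r = 0.9). On the 4 arrays of low C1q, CLU was low as well, at 12.6 to 13.1. The r of these pairs was not recomputed without such arrays.

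**Figure D5:**
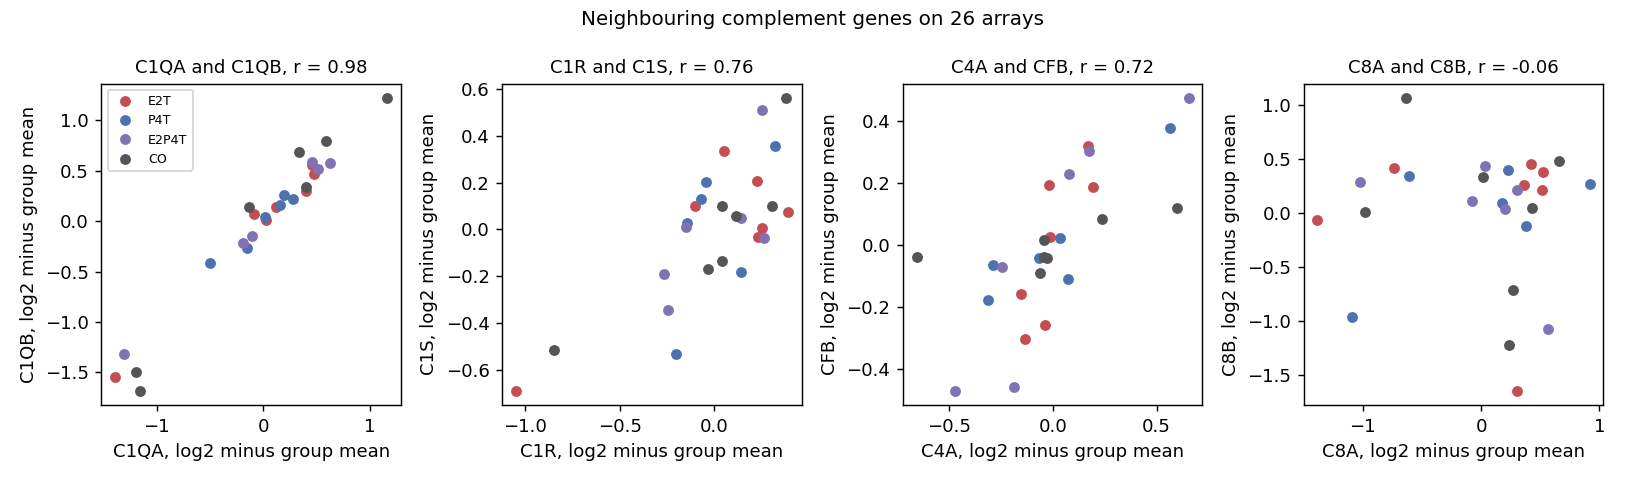
Log2 signal minus the group mean on 26 arrays (E2P4T number 5 and P4T number 4 left out) for C1QA and C1QB, C1R and C1S, C4A and CFB, and C8A and C8B, coloured by group. C1QA and C1QB lie on a line (r = 0.98) with 4 arrays at its low end, whereas C8A and C8B are scattered (r = -0.06).

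Further complement genes came from a list of 46, of which 19 were on the array and 17 were tested. None passed an adjusted p of 0.05, and 2, 1 and 2 had a lower mean at an unadjusted p under 0.05 without the 2 arrays, where 7.2%, 5.81% and 6.51% of all probe sets did. On those 26 arrays SERPING1, the C1 inhibitor, was -0.46 (SE 0.33), -0.6 (SE 0.35) and -0.57 (SE 0.35) in E2T, P4T and E2P4T, and VTN, vitronectin, an inhibitor of the attack complex, -0.26, -0.27 and -0.28 (SE 0.17 each). THBD, thrombomodulin, which aids the inactivation of C3b, was lower in mean in each treatment, at -0.74 (SE 0.27), -0.98 (SE 0.28) and -0.68 (SE 0.28). CPN1 was -0.57 (SE 0.23) in E2T, and SUSD4 was -1.55 (SE 0.72) in E2P4T. CD93, a C1q-binding surface protein, was 0.12, 0.21 and 0.26. C1QBP, C5AR2, CALR and PROS1 also had higher means in each treatment, between 0.11 and 0.52.

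The acute phase list, measured in the same way, had lower means than CO, as did C4A, C4BPA, CFB, C3, C8G and C2. These complement genes were among those of lowest p in the comparisons with CO. Without the 2 arrays, all 31 tested complement genes had medians of -0.07, 0.01 and -0.06 across E2T, P4T and E2P4T. The values of CFB and C3 also depended on the scaling. None of the 12 acute phase genes is on the complement list, and 1 (CRP) is among the further complement genes. Of the 12, 9 were tested and 8 had a lower mean in each treatment without the 2 arrays, with medians across E2T, P4T and E2P4T of -0.7, -0.62 and -0.49 and 5, 1 and 3 genes lower at an unadjusted p under 0.05. Over all probe sets 59.8%, 59.1% and 58.5% had a lower mean, and 7.2%, 5.81% and 6.51% passed lower. Its mean log2 signal was 13.45 ± 0.26 in E2T (SD, n = 7), 13.62 ± 0.71 in P4T (n = 6), 13.57 ± 0.62 in E2P4T (n = 6) and 14.25 ± 0.78 in CO (n = 7), and the ranges overlapped, 13.12 to 13.81, 13.04 to 14.9, 13.14 to 14.82 and 12.87 to 15.25. None of its genes passed an adjusted p of 0.05. The relation of these genes to the complement values was not tested.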

How the data were processed

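The authors hybridized biotinylated copy RNA from liver mRNA to Affymetrix Bovine GeneChips and deposited 1 linear signal intensity per probe set from MAS5, scaled per array (trimmed means without the outer 2% at each end, 999.6 to 999.8). Signals were taken to log2 with no further scaling, and the precision is limited by 7 arrays per group. Of 24016 probe sets other than controls, 18775 with a highest signal of at least 350 were tested. All groups entered 1 fit in limma 3.58.1 under R 4.3.3 (lmFit, eBayes with a trend), with Benjamini-Hochberg adjustment and a threshold of 0.05. The mixed model of the study needs cow and period and was not run. The fit was tested on simulated data.

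Symbols came from the platform annotation (13292 probe sets with 1 symbol, 86 with several, 10638 with none), and 22 members had 1 probe set and 10 several. Values by array are given for genes among the 4 lowest p of a comparison with CO or of the F test, with all arrays or without E2P4T number 5 and P4T number 4, and for C3, C1q and CLU. The members and lists were chosen with earlier results of these data known. Alternatives covered the scaling (quantile, median), the filter (none, or a stricter one on mean signal), an offset of 50, unmoderated variances, replicate blocks, a term for array number, array weights, arrays left out, only the groups compared, and the mean over probe sets.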

Additional observations from a re-analysis of the deposited data

Results flagged for a closer look

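Of 128 sets of 7 arrays (32 genes in 4 groups), 42 held an array that stood apart. Its gap to its nearest neighbour, as a share of the group's whole range, was over Dixon's critical value for 7 arrays. The values given by gene are that share of the range. Chance gives about 1 in 20 for independent sets, but these sets share the same arrays and are not independent. On E2P4T number 5, 14.2% of all tested probe sets lay below every array other than it and P4T number 4, and 40.1% above. On P4T number 4, 12.9% lay below those arrays and 31.2% above. Whether complement genes held more arrays that stood apart than other probe sets was not tested. E2P4T number 5 stood apart in 20 sets: C1R 0.94, C1S 0.86, C6 0.86, MBL1 0.85, C4BPA 0.84, C8G 0.84, CFB 0.84, C4A 0.82, CFI 0.82, C5 0.8, C9 0.78, CFD 0.78, C8A 0.75, C2 0.74, COLEC11 0.74, MASP2 0.72, MBL2 0.71, C8B 0.69, C1QB 0.67 and C4BPB 0.61. P4T number 4 did so in 10: C1QB 0.78, C3 0.74, C7 0.7, C1QA 0.68, C4BPA 0.68, C1QC 0.66, CD55 0.66, C1R 0.63, C8B 0.61 and MBL2 0.58, with C3, C4BPA and CD55 high and the others low.

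E2T number 3 was the low array in 8 sets: CLU 0.76, C8B 0.75, C1QB 0.74, MBL2 0.73, C1QA 0.7, C1R 0.66, C1QC 0.64 and C1S 0.64. CO number 3 was high for C3 (0.89) and low for C1R (0.66). The other 2 were E2P4T number 2, low for CLU (0.67), and E2T number 1, low for FCN1 (0.59).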

How the results depend on the processing

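Over 44 alternative settings, no complement gene was called in any of the 10 tests, and the lowest adjusted p against CO was 0.2 (C8G in E2T, limma with array weights). A single other probe set was called in E2T against P4T with array weights. The median log2 fold change of the genes in E2P4T against CO, -0.64 as reported, moved by more than 0.34, the SD between CO arrays of the genes' mean log2 signal, in the settings that follow. It was -0.19 with array weights, -0.06 without E2P4T number 5 and P4T number 4, 0.01 with quantile normalization of those 26 arrays, -0.08 on them with the replicate block and -0.16 without E2T number 3 and CO number 3 as well; the last 3 were chosen after seeing the data. Leaving out each array in turn gave -0.75 to -0.06 in E2P4T (-0.06 without number 5), -0.13 to 0.02 in E2T and -0.22 to 0.01 in P4T. Median centring moved the median of all probe sets to 0.17, 0.09 and 0.04 in E2T, P4T and E2P4T, and that of the complement genes to 0.2, -0.02 and -0.58. With quantile normalization of all 28 arrays CFB, C3 and C9 were at 0, 0.02 and 0.23 in E2T, whereas C4A and C4BPA were at -0.36 each. In P4T CFB, C3 and C9 were then at -0.01, -0.08 and 0.1, and in E2P4T they stayed negative, at -0.71, -0.13 and -0.17. Genes of lower mean at an unadjusted p under 0.05 in E2P4T ranged from 0 (median centring) to 7 (without E2P4T number 2). The array numbers were not taken to pair the arrays: same-numbered arrays had r of -0.21 to 0.32, 13 of 42 pairs were over 0.1, among them all 6 pairs of number 6 (0.12 to 0.32), and 7 of 28 arrays correlated best with their own number. With the replicate block on all arrays the count of calls stayed at 0 and the median in E2P4T at -0.64. Low signals limit CR2, FCN1 and MASP1.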
